A study of Mus musculus with 8 samples.

Results

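Glucocorticoid-responsive genes and metallothioneins were followed in 8 lung RNA samples from mice with LPS-induced acute lung injury. The set held 10 genes, taken by name from a table of 24584 genes: the glucocorticoid receptor gene Nr3c1, its well-known targets Fkbp5, Tsc22d3, Sgk1, Dusp1, Zbtb16, Pdk4 and Klf9, and the metallothionein genes Mt1 and Mt2. The genes were taken by name, with no threshold on a measured value. All 10 passed the filter on low counts and were among the 15706 genes tested.

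All mice were male ICR mice of 6 to 8 weeks, an outbred stock labelled wild type. LPS from Escherichia coli O111:B4, the bacterial cell wall component that triggers systemic inflammation, was injected intraperitoneally at 5 mg/kg in every animal. The LPS group held 4 samples. The LPS + Tan group held 4 samples from mice that also received tangeretin, a citrus flavonoid, at 50 mg/kg intraperitoneally 30 min before LPS. Lungs were taken 12 h after LPS. The labels number the samples of a group without stating that each is a separate mouse, and p-values then measure only the spread between these samples. The vehicle of the LPS group is not given in the sources used here. Untreated mice, mice given tangeretin alone and mice given dexamethasone, the synthetic glucocorticoid that served as positive control of the study, were not analysed here, so the values compare lungs with and without tangeretin within LPS injury only. The RNA came from lung tissue as a bulk, in which fewer cells of a type and less RNA per cell cannot be told apart.

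The glucocorticoid receptor waits in the cytoplasm in a complex with heat shock proteins and the co-chaperones FKBP4 and FKBP5. Once bound by corticosterone, which the adrenal gland releases strongly during endotoxemia, it enters the nucleus and binds a palindromic DNA element, the glucocorticoid response element (GRE), near genes that dampen inflammation and shift metabolism. Metallothioneins are small cysteine-rich proteins that bind zinc and copper. Their genes are induced by zinc through the factor MTF1, which binds short metal response elements (MREs), and also by glucocorticoids and inflammatory cytokines, which makes Mt1 and Mt2 a common readout of the acute phase in lung and liver.

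The promoters of the metallothionein genes and of Sgk1 are printed because they carry the letters of these elements. RefSeq windows (build GRCm38.p6) from 250 bases before to 50 bases after each transcript start were searched on both strands for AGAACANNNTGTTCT (the GRE palindrome), for the looser GNACANNNTGTNC, which every copy of the palindrome also holds, and for the MRE cores TGCACNC and TGCGCNC. For the set, 15 windows of 8 of the 10 genes were read, 6 of them for alternative starts of Sgk1. No window was found for Zbtb16, and Nr3c1 was left out of this reading. Among 32851 windows of all genes the palindrome occurred in 3, or 0.00913%, the looser form in 156, or 0.475%, and either MRE core in 8444, or 25.7%. A match describes letters in this window and is not a site of binding. In the lines below, capitals mark the MRE cores of Mt2, the MRE cores and the looser GRE of Mt1, and the GRE palindrome of Sgk1.
Mt2, chr8:94172368-94172647, plus strand: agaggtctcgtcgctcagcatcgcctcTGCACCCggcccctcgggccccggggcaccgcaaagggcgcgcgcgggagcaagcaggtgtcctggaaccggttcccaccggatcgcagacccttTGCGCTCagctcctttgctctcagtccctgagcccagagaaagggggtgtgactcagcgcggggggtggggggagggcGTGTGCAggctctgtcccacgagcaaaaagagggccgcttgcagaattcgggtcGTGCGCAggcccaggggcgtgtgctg
Mt1, chr8:94178839-94179118, plus strand: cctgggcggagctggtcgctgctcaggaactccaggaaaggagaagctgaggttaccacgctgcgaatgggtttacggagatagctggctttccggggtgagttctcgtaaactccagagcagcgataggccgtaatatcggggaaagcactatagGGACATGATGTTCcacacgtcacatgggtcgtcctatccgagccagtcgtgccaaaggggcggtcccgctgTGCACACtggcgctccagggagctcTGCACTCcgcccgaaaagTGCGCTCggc
Sgk1, chr10:21993640-21993759, plus strand: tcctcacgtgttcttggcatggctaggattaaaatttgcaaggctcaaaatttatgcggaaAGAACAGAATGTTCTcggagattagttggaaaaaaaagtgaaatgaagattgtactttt

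With the first base of the transcript counted as position 1, and no position 0, the Mt2 window held 4 MRE cores, at -223, -128, -50 and 5. The Mt1 window held 3, at -23, 3 and 21, and a looser GRE at -94. One Sgk1 window was among the 3 of all windows with the full palindrome, at -189. A window of another Sgk1 start held 1 MRE core at 12, and the Dusp1 window held 1 at -6. The windows of Fkbp5, Tsc22d3, Pdk4 and Klf9 held 0 of these letters. Mt1 and Mt2 are neighbours on chromosome 8 (Mt2 at chr8:94172664-94173568 and Mt1 at chr8:94179082-94180327 in GENCODE M21, GRCm38, both on the plus strand), and their transcripts shared no exact run longer than 20 bases.

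Depth hardly differed between libraries, with 38895654 to 39931970 reads counted on genes per sample and scaling factors of 0.959 to 1.05, and the precision of the 10 genes was set by the spread between lungs. No libraries of 1 group were copies of each other, the scatter between them being 9.17 to 32.1 times that of sampling noise. Markers of alveolar type 2 cells summed to between 6674 and 11448 CPM (read counts scaled to a common library total), so the lung label held, and T cell markers summed to 12.3 to 19.3 CPM. Over 13 marker lists of lung and other cell types the smallest unadjusted p of a summed level was 0.114 by exact permutation, for fibroblasts. Adjusted over the lists, a single fully separated list could reach only 0.371, so this test says nothing on whether cell composition was stable. Of single markers, 2 of the 6 endothelial genes were called higher at an unadjusted edgeR p below 0.05, Kdr at 259 and 334 CPM and Tek at 271 and 387 CPM in LPS and LPS + Tan, against 2.87% of all tested genes. The other endothelial genes were not called. Cdh5, at 1324 and 1193 CPM, and Cldn5, at 596 and 584 CPM, were lower in LPS + Tan. Pecam1, at 1079 and 1230 CPM, and Ptprb, at 546 and 602 CPM, were higher. With each of the 8 samples left out in turn, the call of Kdr remained in 3 fits and that of Tek in 2. Their part in the results was not tested.

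Levels were compared between genes per kilobase of transcript, as FPKM. In the LPS group Mt2 was the most abundant of the 10 at 1433 ± 319 FPKM (SD, n = 4), which put it in place 20 among all genes. Mt1 followed at 475 ± 101 FPKM, then Dusp1 at 245 ± 26.1, Tsc22d3 at 164 ± 15.9 and Fkbp5 at 121 ± 4.59 FPKM. Each of these stood above the next with no overlap of the 4 samples. Pdk4, Sgk1 and Klf9 lay at 82.5 ± 12.4, 82.2 ± 5.94 and 73.6 ± 4.66 FPKM, and neighbours among them overlapped. Zbtb16 at 38.9 ± 3.56 and Nr3c1 at 21.8 ± 0.962 FPKM were the lowest of the 10. In the LPS + Tan group the order was the same except that Sgk1, at 98.8 ± 17.1 FPKM, stood before Pdk4 at 75.8 ± 12.5, and 6 of the 9 pairs of neighbours overlapped.

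Against this background the question was whether tangeretin moved glucocorticoid and metallothionein transcripts in the inflamed lung. Of the 10 genes, 9 were lower on average in LPS + Tan and only Sgk1 was higher, against 48.2% of all tested genes with a log2 fold change below 0. The median log2 fold change of the 10 was -0.19, against 0.0070 for all tested genes. By edgeR's quasi-likelihood test 1 gene, Mt2, was lower at an unadjusted p below 0.05, where 2.25% of all tested genes were lower, and 0 were higher, where 2.87% of all genes were. None of the 10 passed an adjusted p of 0.05 by edgeR, DESeq2, limma-voom or limma on FPKM. Across the whole table edgeR called 0 genes at that threshold, with a lowest adjusted p of 0.497 and 804 genes, or 5.12%, at an unadjusted p below 0.05, whereas DESeq2 called 35, or 0.143%, and none of the 10 was among them. The study's thresholds combine an unadjusted p of 0.05 with a log2 fold change of at least 1 in size, and 0 of the 10 reached them, against 0.649% of tested genes. The groups overlapped in all 10, whereas 2.73% of all tested genes showed no overlap.

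**Figure D1:**
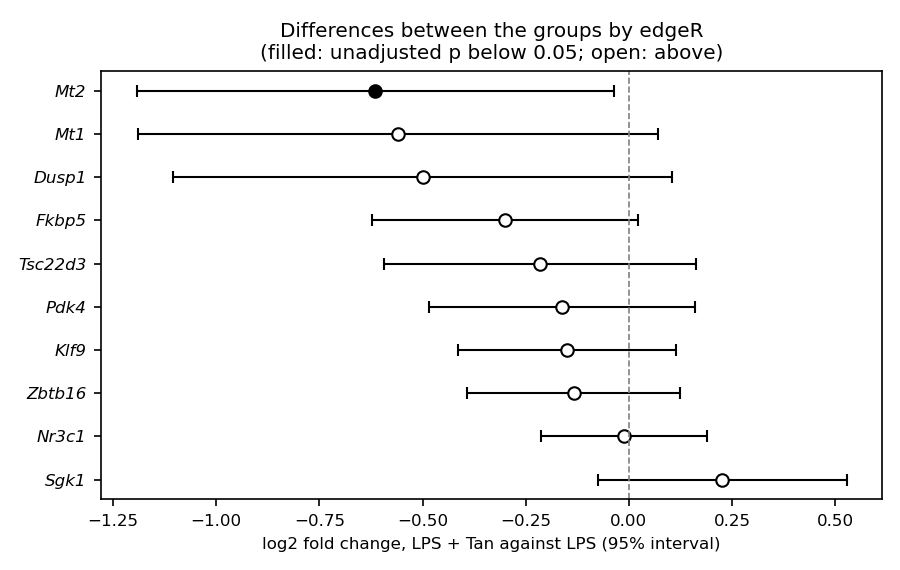
Log2 fold change of LPS + Tan against LPS (x axis) for each of the 10 genes (y axis), with points for edgeR estimates and bars for 95% intervals, filled where the unadjusted p was below 0.05. Of the 10 intervals, 9 include 0, and that of Mt2 ends at -0.036.

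The receptor itself differed little between the groups. Nr3c1, on chromosome 18, lay at 184.6, 185.3, 204.6 and 201.6 CPM in the 4 LPS lungs and at 197.8, 216.3, 176.0 and 180.0 in the 4 LPS + Tan lungs, in order of replicate. The 2 sets of values interleaved, with a mean of 194 ± 10.6 CPM against 193 ± 18.5. The log2 fold change was -0.011 (95% interval -0.21 to 0.19, edgeR adjusted p = 0.998), and limma on log2(FPKM + 1) gave 0.026, with the opposite sign.

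Fkbp5 (chr17:28399094-28517527, minus strand), the co-chaperone that holds the receptor in its low-affinity state and is itself strongly induced by it, was the steadiest of the 10 genes in LPS. Its SD of log2 CPM was 0.049 in LPS and 0.31 in LPS + Tan, where the median SD of the 10 genes was 0.29. Fkbp5 lay at 496.9, 460.6, 466.4 and 479.6 CPM in LPS and at 331.7, 515.6, 376.6 and 322.9 CPM in LPS + Tan. Replicates 1, 3 and 4 of LPS + Tan were below every LPS lung, and replicate 2 was the highest of all 8. The log2 fold change was -0.30 ± 0.14 (SE, 95% interval -0.62 to 0.023), with unadjusted p = 0.0650 and adjusted p = 0.924 by edgeR. Without LPS + Tan replicate 2 it was -0.47 (edgeR unadjusted p = 0.000771, adjusted p = 0.214), and over the other samples left out in turn it ran up to -0.22, without replicate 4 of LPS + Tan.

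Tsc22d3 (chrX:140539528-140600659, minus strand) encodes GILZ, a leucine zipper protein through which glucocorticoids restrain NF-κB and AP-1. Its level was 702.4, 596.8, 640.2 and 741.7 CPM in LPS, and 403.2, 686.4, 524.6 and 694.6 CPM in LPS + Tan. Replicates 1 and 3 of LPS + Tan were below the LPS range, and replicates 2 and 4 were within it. The log2 fold change was -0.22 ± 0.17 (95% interval -0.59 to 0.16, edgeR adjusted p = 0.940), and it was -0.079 without LPS + Tan replicate 1.

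Dusp1 (chr17:26505590-26562128, minus strand) encodes MKP-1, the phosphatase that switches off p38 and JNK and that is induced by glucocorticoids as well as directly by LPS and stress. It showed the widest split of the receptor targets, with 418.7, 456.9, 535.7 and 524.7 CPM in LPS and 205.1, 513.0, 225.2 and 426.2 CPM in LPS + Tan. Replicates 1 and 3 of LPS + Tan lay more than 1.0 log2 units below the LPS mean, at -1.23 and -1.10, while replicates 2 and 4 were within the LPS range. The group means of 484 ± 55.8 and 342 ± 151 CPM gave a log2 fold change of -0.50 ± 0.27 (95% interval -1.10 to 0.11, edgeR unadjusted p = 0.0957, adjusted p = 0.924). It was -0.32 without LPS + Tan replicate 1 and -0.76 without replicate 2. The annotated span of Dusp1 overlaps Ergic1 on the opposite strand, and since the strand setting of the counting is not given in the sources used here, shared reads cannot be told apart. Ergic1 lay at 82.4 ± 8.49 and 73.7 ± 7.04 CPM, with a log2 fold change of -0.16 (edgeR adjusted p = 0.928).

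Sgk1 (chr10:21882184-21999903, plus strand), the kinase that raises epithelial sodium transport under glucocorticoids and mineralocorticoids, went the other way. It lay at 334.0, 316.3, 360.5 and 378.1 CPM in LPS and at 409.9, 499.4, 314.2 and 400.8 CPM in LPS + Tan. Replicates 1, 2 and 4 of LPS + Tan were above every LPS lung, and replicate 3 was the lowest of all 8. The log2 fold change was 0.23 ± 0.14 (95% interval -0.075 to 0.53, edgeR unadjusted p = 0.126, adjusted p = 0.928). Without replicate 3 of LPS + Tan the unadjusted p was 0.0208, and without replicate 2 the log2 fold change was 0.11 with an unadjusted p of 0.378 by edgeR.

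The 3 remaining targets differed less. Zbtb16 (chr9:48654297-48836222, minus strand), a zinc finger repressor also called PLZF, lay between 302.8 and 362.4 CPM in LPS, and at 302.6, 321.8, 319.0 and 235.3 CPM in LPS + Tan, where only replicate 4 stood apart below the others. Pdk4 (chr6:5483351-5496309, minus strand), the kinase that shuts off pyruvate dehydrogenase in fasting, lay at 258.8 to 348.7 CPM in LPS and at 198.2, 308.0, 254.8 and 272.4 CPM in LPS + Tan. Klf9 (chr19:23141226-23168134, plus strand), a Krüppel-like transcription factor that follows corticosterone, lay at 312.0 to 360.7 CPM in LPS and at 254.4, 370.4, 289.1 and 293.8 CPM in LPS + Tan. For Klf9 replicate 2 of LPS + Tan was the highest of all 8 lungs and the other replicates were below the LPS range. Their log2 fold changes were -0.13 for Zbtb16, -0.16 for Pdk4 and -0.15 for Klf9, with SEs of 0.12, 0.14 and 0.12 and edgeR adjusted p of 0.950, 0.951 and 0.940. All 3 depended on single samples. Zbtb16 was at -0.040 without LPS + Tan replicate 4 and -0.074 without LPS replicate 4. Pdk4 was at -0.056 without LPS + Tan replicate 1, -0.059 without LPS replicate 4 and -0.26 without LPS + Tan replicate 2. Klf9 was at -0.078 without LPS + Tan replicate 1 and -0.26 without replicate 2, where its unadjusted edgeR p was 0.0238.

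The metallothioneins gave the largest differences of the set. Mt1 lay at 483.0, 526.3, 801.1 and 623.8 CPM in LPS and at 244.0, 615.4, 293.3 and 499.6 CPM in LPS + Tan. Mt2 lay at 616.9, 698.1, 1051 and 876.1 CPM in LPS and at 350.5, 795.1, 400.1 and 572.4 CPM in LPS + Tan. For both genes replicates 1 and 3 of LPS + Tan were the lowest of all 8 lungs, and replicate 2 of LPS + Tan was within the LPS range. Replicate 4 of LPS + Tan was within the LPS range for Mt1 and below it for Mt2.

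The mean of Mt2 was 811 ± 194 CPM in LPS and 530 ± 201 CPM in LPS + Tan, a log2 fold change of -0.61 ± 0.26 (95% interval -1.19 to -0.036). Its unadjusted p by edgeR was 0.0395, its adjusted p was 0.924, and it held place 647 of 15706 genes by p. By DESeq2 its unadjusted p was 0.0161 and its adjusted p 0.608. Mt1 had a mean of 609 ± 141 CPM in LPS and 413 ± 174 CPM in LPS + Tan, a log2 fold change of -0.56 ± 0.28 (95% interval -1.19 to 0.071) with unadjusted p = 0.0765 and adjusted p = 0.924 by edgeR. The call of Mt2 was lost in several fits with 1 sample left out. Its unadjusted edgeR p lay between 0.0562 and 0.115 without LPS replicate 3 or 4 or LPS + Tan replicate 1, 3 or 4. In those fits the log2 fold change ran from -0.65 to -0.46, and over all 8 samples left out in turn from -0.88 to -0.46.

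**Figure D2:**
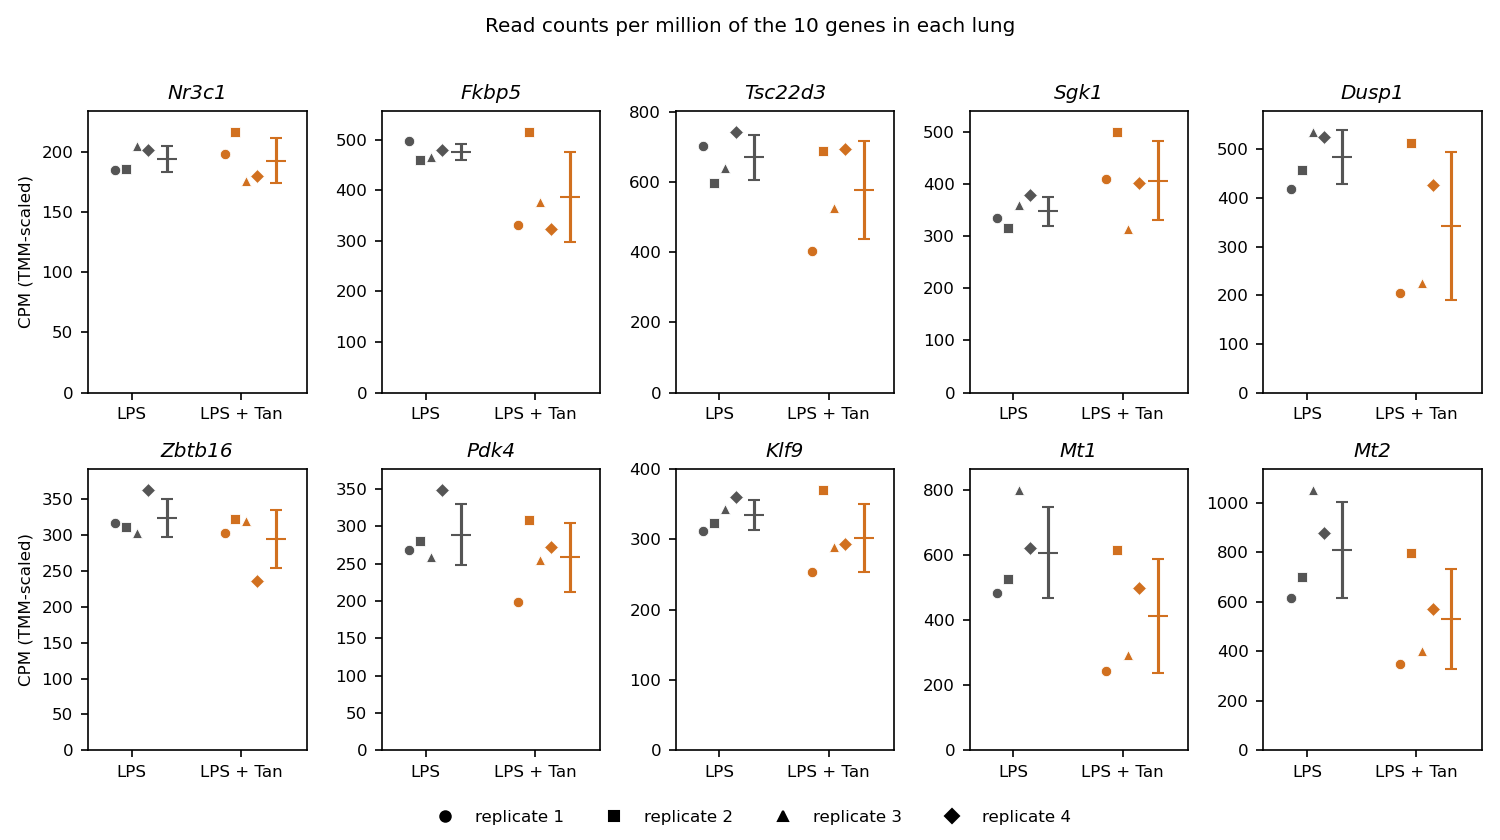
CPM scaled by TMM (y axis, from 0) in each lung for the 10 genes, 1 panel per gene, with LPS in grey and LPS + Tan in orange, symbols for replicates, and the mean with SD beside them. Dusp1, Mt1 and Mt2 show replicates 1 and 3 of LPS + Tan below every LPS lung, and replicate 2 of LPS + Tan lies above every LPS lung in Fkbp5, Klf9, Nr3c1 and Sgk1.

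Mt1 and Mt2 kept nearly the same proportion to each other in every lung. Mt1 made up 25.7%, 25.0%, 25.2% and 23.9% of the summed FPKM of the pair in LPS, and 23.5%, 25.5%, 24.5% and 27.8% in LPS + Tan. The means of 25.0% ± 0.744 and 25.3% ± 1.85 differed by 0.374 percentage points (exact two-sided permutation p = 0.800, n = 4 and 4, smallest possible p 0.0286), and without LPS + Tan replicate 4 the difference was -0.46. Summed, the pair reached 1100 to 1852 CPM in LPS and 594, 1410, 693 and 1072 CPM in LPS + Tan. Mt1 levels fell into separate clusters, 244.0 and 293.3 CPM in LPS + Tan replicates 1 and 3 and 483.0 to 801.1 CPM in the other 6 lungs. Within those 6 lungs log2 Mt1 and log2 Mt2 had a Pearson r of 0.965 (exact permutation p = 0.00417, or 0.0375 multiplied by the 9 relations planned) and a Spearman rho of 0.943 (exact permutation p = 0.0167, or 0.15 multiplied). Pearson r was 0.949 in the 4 lungs left when the 2 farthest from the median of Mt1 were set aside. Fkbp5 also fell into clusters, 3 LPS + Tan lungs at 322.9 to 376.6 CPM and 5 lungs at 460.6 to 515.6 CPM, and since neither held 6 lungs its 8 planned relations to other genes of the set were not tested, under a rule on clusters that was set after the data were seen.

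**Figure D3:**
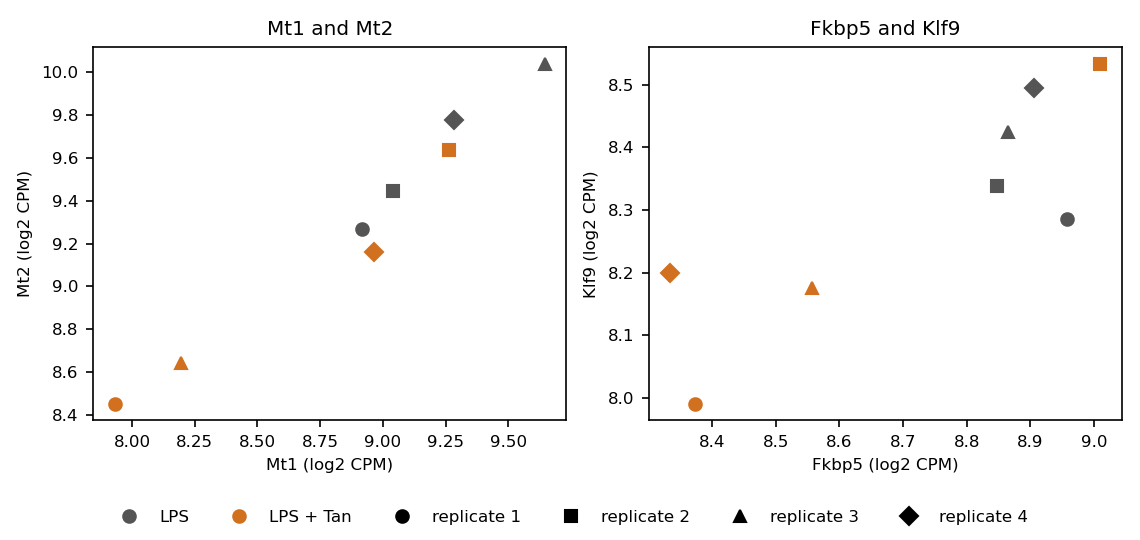
Log2 CPM of Mt2 against Mt1 and of Klf9 against Fkbp5 in the 8 lungs (both axes in log2 CPM), with LPS in grey, LPS + Tan in orange and symbols for replicates. The 2 lowest points in Mt1 and Mt2 are LPS + Tan replicates 1 and 3, and Fkbp5 leaves a gap between 376.6 and 460.6 CPM.

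Read by sample, the median of the 10 genes was below all 4 LPS lungs in 3 of the 4 LPS + Tan lungs. In LPS + Tan replicate 1 the median of the 10 genes was -0.53 log2 units from the LPS mean, and this lung was the lowest of all 8 in 6 genes. In replicate 3 the median was -0.27 and all 10 genes were below the LPS mean. In replicate 4 it was -0.18, with the lowest values of all lungs in Fkbp5 and Zbtb16. In replicate 2 it was 0.097, and this lung was the highest of all 8 in 4 genes, Nr3c1, Fkbp5, Sgk1 and Klf9. The 4 LPS lungs had medians of -0.083, -0.070, 0.048 and 0.13. The median of all tested genes lay within 0.014 of 0 in every lung. Together the 10 genes took 0.298% to 0.486% of the counts of a lung.

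**Figure D4:**
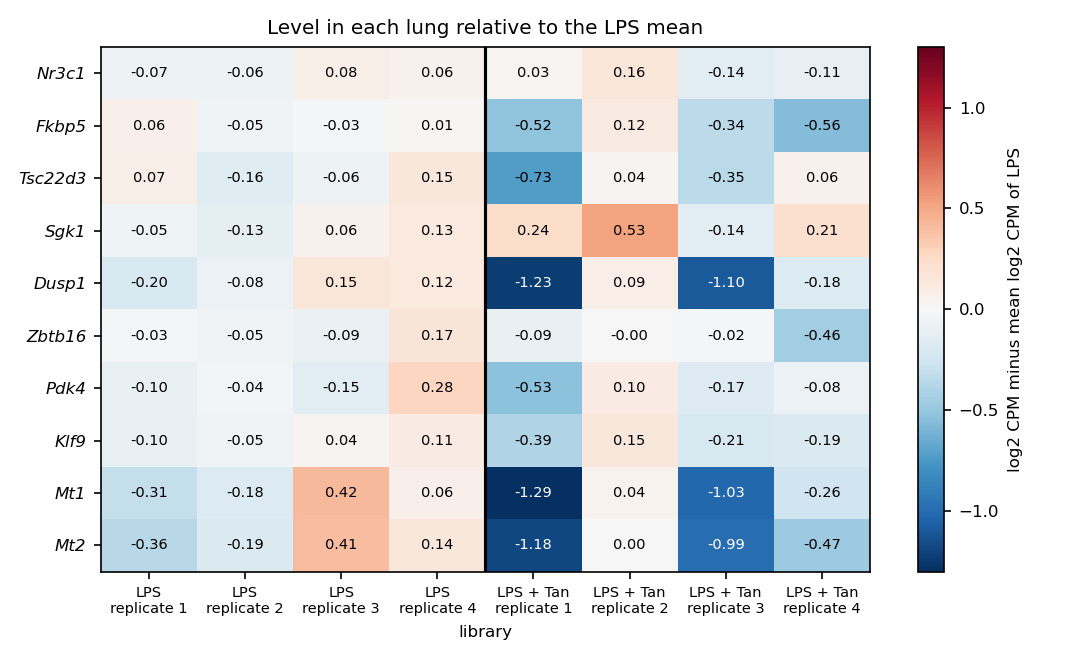
Log2 CPM of each gene (rows) in each lung (columns) minus the mean log2 CPM of the LPS group, as color and number. LPS + Tan replicate 1 reaches -1.29 in Mt1, whereas LPS + Tan replicate 2 lies between -0.0031 and 0.53 over the 10 genes.

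The count of called genes depended on that lung. Without LPS + Tan replicate 2, 5 of the 10 genes were lower at an unadjusted edgeR p below 0.05, namely Fkbp5, Dusp1, Klf9, Mt1 and Mt2, where 5.06% of all tested genes were lower, and 0 of the 10 passed the adjusted threshold. The count was 0 without LPS replicate 3, LPS replicate 4, or LPS + Tan replicate 1, 3 or 4, where 1.71%, 2%, 1.33%, 1.88% and 4.56% of all tested genes were lower. Some marker levels also set these lungs apart. LPS + Tan replicate 2 had the lowest summed neutrophil markers, 3521 CPM against 4020 to 5306 in LPS. Heart muscle markers summed to 192.9 and 251.7 CPM in LPS + Tan replicates 1 and 3, the lungs lowest in Dusp1 and the metallothioneins, and to 129.9 and 143.9 CPM in replicates 2 and 4, against 132.8 to 179.7 in LPS. LPS + Tan replicate 4, the lung lowest in Fkbp5 and Zbtb16, had alveolar type 1 markers of 2082 CPM against 1644 to 1768 in LPS, and fibroblast markers of 2404 CPM against 2652 to 3196. Erythroid markers were lowest in LPS + Tan replicate 1, at 1315 CPM, against 1415 to 3427 in LPS. LPS + Tan replicate 4 also had alveolar type 2 markers of 11448 CPM against 6674 to 10473 in LPS, and alveolar macrophage markers of 2313 against 1222 to 2268. Endothelial markers were 4671 CPM in LPS + Tan replicate 1, against 3620 to 4419. T cell markers were 19.3 and 19.1 CPM in LPS + Tan replicates 1 and 2, against 12.3 to 16.4. Not every sum outside the LPS range is listed. The part of these cells in the levels of the 10 genes was not tested.

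The scatter between lungs was larger in LPS + Tan than in LPS for all 10 genes, as it was for 64.9% of all tested genes. The SD of log2 CPM was 6.38 times that of LPS for Fkbp5 and 3.91 times for Dusp1, and its ratio exceeded 2 in 5 of the 10 genes, against 24.8% of all tested genes and 35.1% of the 2334 genes at a mean of 100 CPM or more. The median ratio was 2.17 for the 10 genes, 1.28 for all tested genes and 1.53 for those 2334. No test was run on this scatter.

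The machinery that makes the receptor responsive was described by 21 tested genes of a list of 23. At an unadjusted p below 0.05 edgeR called 1 of them higher and 0 lower, against 2.87% and 2.25% of all tested genes, and the median log2 fold change was 0.042. The gene called higher was Hspa8, the constitutive HSP70 chaperone that takes part in folding the receptor. It lay at 771.1, 589.0, 592.6 and 657.9 CPM in LPS and at 1278, 666.3, 915.8 and 1204 CPM in LPS + Tan. Replicates 1, 3 and 4 of LPS + Tan were above every LPS lung, and replicate 2 was within the LPS range. Its log2 fold change was 0.64 ± 0.20 (unadjusted p = 0.00838, adjusted p = 0.924 by edgeR), and the unadjusted p was at most 0.0275 with single samples left out. Fkbp4, the co-chaperone that favours nuclear entry of the receptor, had a log2 fold change of 0.38 and Hsd11b2, which inactivates corticosterone, one of -0.84 at 2.05 and 1.15 CPM, both with an edgeR adjusted p of 0.924. Smarca4, a chromatin remodeler that works with the receptor, had one of -0.064 (edgeR adjusted p = 0.978).

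Other genes known to be induced by glucocorticoids were read from a list of 35, all tested. Of these, 27 had a log2 fold change below 0, against 48.2% of all tested genes, their median was -0.14, and at the unadjusted threshold of 0.05 edgeR called 3 lower and 1 higher, against 2.25% and 2.87% of all tested genes. Zfp36 encodes tristetraprolin, which destabilises cytokine mRNAs. It lay at 163.6, 158.9, 169.3 and 147.5 CPM in LPS and at 121.1, 135.6, 114.5 and 145.0 CPM in LPS + Tan. All 4 LPS + Tan lungs were below all 4 LPS lungs, replicate 2 included, with 145.0 CPM next to 147.5 at the border. The groups did not overlap in 2.73% of all tested genes, in either direction. The log2 fold change of Zfp36 was -0.31 ± 0.094 (unadjusted p = 0.00828, adjusted p = 0.924 by edgeR). Errfi1, a feedback inhibitor of EGF receptor signaling named after its values were seen, had a log2 fold change of -0.50 at 630 and 446 CPM (unadjusted p = 0.0475 by edgeR). Tat, the tyrosine aminotransferase of liver, was called lower at 1.25 and 0.524 CPM, a level at which few reads were counted in lung (unadjusted p = 0.0441 by edgeR). Cd163, the hemoglobin scavenger receptor of macrophages, was the gene called higher, at 9.75 ± 2.13 and 14.1 ± 3.69 CPM, with a log2 fold change of 0.53 and an unadjusted p of 0.0332. With each of the 8 samples left out in turn, the unadjusted call remained in all 8 fits for Zfp36, in 4 for Cd163, in 2 for Errfi1 and in 2 for Tat. That of Cd163 was lost without LPS replicate 3 or 4 or LPS + Tan replicate 1 or 2, with p up to 0.102. That of Errfi1 remained only without LPS + Tan replicate 2 or 4, and that of Tat only without LPS replicate 3 or LPS + Tan replicate 3, with p otherwise up to 0.126 and 0.102. Cyp2b10, a cytochrome P450, had one of 0.14 with an unadjusted p of 0.200.

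Zinc handling, the other arm of metallothionein control, was read from 21 tested genes of a list of 27. By edgeR no member reached an unadjusted p below 0.05 (0 in either direction, against 5.12% of all tested genes). The median log2 fold change was -0.10, and 17 of the 21 were below 0, against 48.2% of all tested genes. Mtf1, the zinc sensor that binds MREs, was at 27.7 CPM in both groups, with a log2 fold change of 0.0010. The zinc exporter gene Slc30a1, itself an MTF1 target, lay at 132 ± 10.8 and 123 ± 10.7 CPM, and the importer gene Slc39a14, an acute-phase zinc transporter, at 305 ± 106 and 202 ± 111 CPM, with log2 fold changes of -0.10 and -0.59. These 3 genes were named after their values were seen, for their known roles. The 2 lowest p in each direction belonged to Slc30a7 at -0.17, Slc39a11 at -0.22, Slc39a13 at 0.15 and Slc39a6 at 0.10, with unadjusted p of 0.0751 to 0.231.

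Pdk4 and Klf9 also answer to fasting and to the clock, and lists of these programs were read beside them. Of 20 tested PPAR and fasting-responsive genes edgeR called 1 higher and 0 lower by its unadjusted p, again against 2.87% and 2.25% of all tested genes, with a median log2 fold change of -0.071. The gene called was Ppargc1a, a coactivator of mitochondrial biogenesis, at 2.99 ± 0.136 and 4.07 ± 0.752 CPM (unadjusted p = 0.0251, adjusted p = 0.924 by edgeR). Its groups did not overlap, as was the case for 2.73% of all tested genes. Its call was lost without LPS replicate 1 or LPS + Tan replicate 2 or 3, where the unadjusted p reached 0.0911. The fatty acid receptor gene Cd36 had a log2 fold change of 0.39, the uncoupling protein gene Ucp2 one of -0.38 and the lipoprotein lipase inhibitor gene Angptl4 one of -0.21, none at an unadjusted p below 0.05. Of 17 circadian clock genes it called 0 in either direction, against 5.12% of all tested genes, with a median of -0.037. In this list the log2 fold change was -0.23 for the repressor gene Per2, 0.16 for Nr1d2 and 0.21 for Ciart, with unadjusted p of 0.153 to 0.425.

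**Figure D5:**
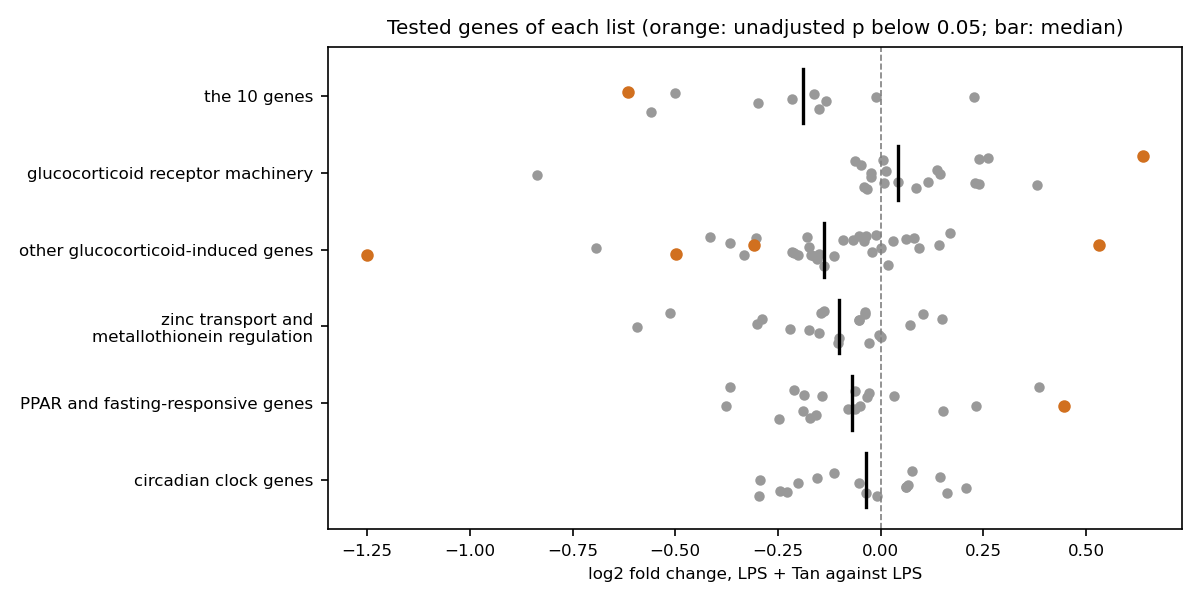
Log2 fold change of LPS + Tan against LPS (x axis) of each tested gene of 6 lists (y axis), 1 point per gene, orange where the unadjusted edgeR p was below 0.05, with a bar at the list median. Medians run from -0.19 in the 10 genes to 0.042 in the receptor machinery.

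The genes most like Fkbp5 and Mt1 across the 8 lungs were listed as a description with no test, out of 15696 tested genes outside the set. For Fkbp5 the highest Pearson r of log2 CPM belonged to Plxna2 at 0.990, Aifm2 at 0.986 and Fam110b at 0.974. For Mt1 it belonged to Enc1 at 0.994, Shb at 0.989 and Tlr4, the LPS receptor gene, at 0.988. The 8 lungs of these correlations include the clusters described for Fkbp5 and Mt1. Tlr4 lay at 121 ± 5.20 CPM in LPS and 108 ± 13.3 CPM in LPS + Tan, with a log2 fold change of -0.16 (edgeR adjusted p = 0.928).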

How the data were processed

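RNA of 8 mouse lung samples was sequenced, 4 per group. Per the methods, RNA was extracted with TRIzol and libraries were made with the VAHTS Universal V6 kit, whereas the labels name other kits. The authors deposited raw read counts for 24584 genes, not normalized, and FPKM values, which for all 13768 genes checked implied a gene length constant across samples within 1%. The submitters' processing notes name the builds GRCm38 and mm10. For aligner, counter, annotation and strand setting, the entry is: not given in the sources used here. Depth was 38895654 to 39931970 counts per sample.

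Groups came from the labels, and every sample column was assigned (0 left over). Counts were filtered with filterByExpr, scaled by TMM and tested with the quasi-likelihood test of edgeR 4.0.16 (R 4.3.3), LPS + Tan against LPS, with Benjamini-Hochberg adjustment over 15706 genes and no covariate. CPM is the count relative to the TMM-scaled library total, and the SE is the log2 fold change divided by the square root of F. Single values were compared by exact permutation over 70 arrangements, and relations over 720 pairings. Samples were taken as clustered where the widest gap in log2 CPM exceeded a share of the range set after the data were seen. It was 42.0% of the range for Mt1 and 43.0% for Fkbp5. Positions are from GENCODE M21, and promoters from RefSeq. Alternatives were DESeq2 1.42.0, upper-quartile and RLE factors, other filters, limma 3.58.1 (voom and log2(FPKM + 1) or + 0.1), the likelihood ratio test, the replicate block, and each sample left out. The scripts were tested on simulated data.

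The genes and lists were chosen with earlier results of these data known. Named genes are the 10, the 2 lowest p per direction in each list, the 3 most like Fkbp5 and Mt1, and those said to be named later. One gene this rule names is not reported here. Of 191 list entries, 185 were in the table.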

Additional observations from a re-analysis of the deposited data

Results flagged for a closer look

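None of the 10 genes had a lung far from the others of its group by Dixon's criterion at 95%. Of 48 sets of 4 samples examined, 3 had one, where chance gives about 1 in 20, or 2.4, and all 3 were marker sums. Neutrophil markers in LPS + Tan were lowest in replicate 2, at 3521 CPM with the next lung at 4964, a gap of 0.836 of the range. T cell markers in LPS were lowest in replicate 4, at 12.3 CPM with the next at 16.1, a gap of 0.933 of the range. Heart muscle markers in LPS were highest in replicate 4, at 179.7 CPM with the next at 137.4, a gap of 0.902 of the range. LPS + Tan replicate 2 is also the lung in which Fkbp5, Klf9, Nr3c1 and Sgk1 were highest. The part of these cells in the levels of the 10 genes was not tested.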

How the results depend on the processing

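Under 19 alternatives, 0 of the 10 genes passed an adjusted p of 0.05 or the study's thresholds. The log2 fold changes of the other 9 genes kept their sign in every alternative, whereas that of Nr3c1 became 0.026 and 0.027 with limma on log2(FPKM + 1), with and without the filter, and on log2(FPKM + 0.1), and ran from -0.072 to 0.027 with single samples left out. The count of genes lower at an unadjusted p below 0.05, 1 in the comparison as reported, became 2 with DESeq2 (Mt1 and Mt2), 2 with limma-voom (Fkbp5 and Mt2), 2 without a filter (Mt1 and Mt2), 0 with limma on log2(FPKM + 1) of all genes, where 2.08%, 2.49%, 2.31% and 1.7% of all genes with a p were lower, and 0 to 5 with single samples left out. The count higher became 1, Sgk1, without LPS + Tan replicate 3, from a range of 0 to 1. For receptor machinery the count of 1 became 2 with DESeq2, the likelihood ratio test, limma-voom or no filter. In these fits 4.41%, 5.23%, 5.16% and 4.88% of all genes were called in either direction. The machinery count ran from 1 to 6 with samples left out, with 6 without LPS + Tan replicate 2, 4 without LPS replicate 1, and 2 without LPS replicate 4 or LPS + Tan replicate 4. For other glucocorticoid-induced genes the count of 4 ran from 1 to 10, with 10 without LPS + Tan replicate 2, 2 without LPS replicate 1, and 1 without LPS replicate 4 or LPS + Tan replicate 1. For zinc genes the count of 0 ran from 0 to 4, with 4 without LPS + Tan replicate 2 and 1 without LPS replicate 2. The difference in the Mt1 share ran from -0.46 to 0.97 points with samples left out, and its sign turned without LPS + Tan replicate 4. The share of all tested genes lower and higher at that threshold moved too, from 2.25% and 2.87% as reported to 5.06% and 5.15% without LPS + Tan replicate 2, 4.56% and 4.78% without LPS + Tan replicate 4, 1.33% and 1.69% without LPS + Tan replicate 1, 2.54% and 3.1% without LPS replicate 1, 1.91% and 2.22% without LPS replicate 2, 2% and 2.91% without LPS replicate 4, and 1.88% and 1.84% without LPS + Tan replicate 3. The cause of these changes was not tested. Deviations of same-numbered samples from their group means had correlations of 0.12, -0.031, -0.15 and 0.020, and 0 of 4 numbers matched best with themselves. Whether same-numbered samples shared a step of handling was not tested, and the labels give only the number. With the replicate number as a block 3 of the 10 genes were lower (Dusp1, Mt1 and Mt2), where 2.73% of all tested genes were lower. The counts in either direction were 3 for receptor machinery, 6 for other glucocorticoid-induced genes and 1 for zinc genes, where 5.26% of all tested genes were called. Depth limits only scarce transcripts such as Tat and Hsd11b2. With 4 samples per group and no untreated lungs, effects of LPS itself on these genes were not measured.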
